A study of Mus musculus with 8 samples.

Results

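The genes described here are those of the heat shock response, the molecular chaperones and the endoplasmic reticulum (ER) stress response in the mouse kidney after cisplatin. They were chosen by name alone: every protein-coding row of the deposited count table that could be used and whose symbol belongs to the small heat shock protein, HSP70, HSP90, HSP60, J-domain (Dnaj), protein disulfide isomerase (Pdia), chaperonin (Cct) or Bag families, to the Edem, Herpud and eIF2alpha kinase (Eif2ak) families, or is one of a set of single ER stress genes such as Ddit3, Trib3, Chac1, Hyou1, Calr, Canx and Creld2. This gave 61 genes of the 35880 rows used. Of these, 29 act in the cytosol or nucleus, 19 in the ER, 5 in stress signalling, 6 in mitochondria, and 2 were placed in none of these. A further 54 protein-coding genes of 115 matching names lie in rows that were not used here, among them Hspa1a, Hspa1b, Dnaja1, Dnajb1, Hspb8, Hspe1, Xbp1, Ern1, Eif2ak3, Asns, Pdia4, Pdia6, Sdf2l1, Manf, Edem1 and several chaperonin subunits, so nothing is said about them.

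Bulk RNA-seq was carried out on kidneys of 4 control and 4 cisplatin-treated animals, with a library for each mouse. All mice were wild-type, and the study's methods name them as male C57/BL6J. Controls received saline, and the other group received 23 mg/kg of cisplatin by intraperitoneal injection, a platinum compound used against solid tumours, whose main site of damage in the kidney is the proximal tubule. Kidneys of both groups were taken at 72 h. Libraries carry the numbers 1, 2, 3 and 5 in the control group and 1, 3, 4 and 6 in the cisplatin group, and values of single libraries below follow that order. No age is given in the sources used here.

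The heat shock response is driven by heat shock factor 1, which raises cytosolic chaperones when unfolded protein accumulates in the cytosol: small heat shock proteins hold unfolding clients, HSP70 folds them in cycles set by J-domain co-chaperones and nucleotide exchange factors, HSP90 matures kinases and receptors, and the chaperonin folds actin and tubulin. The unfolded protein response is the counterpart in the ER, where the sensors IRE1, PERK and ATF6 raise ER chaperones, disulfide isomerases and degradation factors. PERK belongs to the eIF2alpha kinases, which lower translation and induce ATF4 and, through it, CHOP (the product of Ddit3), Trib3 and Chac1, in what is called the integrated stress response.

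Over the rows used, total counts ran from 13539665 to 16201443 per control library and from 10953338 to 16701599 per cisplatin library, which is part of each library's depth. In a principal component analysis the first component (73.55% of the variance) separated the treatments. The second (15.96%) separated control 5, cisplatin 4 and cisplatin 6, called the second library set, from control 1, 2 and 3 and cisplatin 1 and 3, the first set. Cisplatin 1 and 3 also held 2 and 0 counts of the Y-linked gene Kdm5d, against 274 to 576 in the other 6 libraries, which goes against a group of male mice, so counts are also given without them. Without them, cisplatin 4 and 6 of the second set are compared mostly with controls of the first set, so treatment and set are partly mixed. Levels are given as CPM, counts relative to a library size that was normalized by TMM (trimmed mean of M values). Scaling by total library size instead shifted the median log2 fold change of all genes tested by 0.57, from 0.08 to 0.64, and directions that this turns are named with the members.

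Promoters are shown first, because some of the ER members hold a sequence that the choice by name did not use. Promoters in RefSeq (GRCm38.p6, 250 bases before to 50 after the start site) were found for 49 of the 61 members and were searched on both strands for the ER stress element (ERSE, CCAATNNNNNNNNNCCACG), which ATF6 and NF-Y bind, the heat shock element (HSE, GAANNTTCNNGAA), the CHOP and ATF4 site CARE (TGATGCAA) and the XBP1 site UPRE (TGACGTGG). The ERSE was present in a promoter of 37 of the 27025 genes that have one, 0.137%. It was present in 6 of the 18 ER members with a promoter, 33.3%, against 0 of 21 cytosolic members. It was first defined in promoters of this family, Hspa5 and Hsp90b1 among them, so these matches are not independent of its definition. In the lines that follow, the match is in capitals with 25 bases on each side, read along the strand of the gene, and CGTGG at the left end marks a match on the opposite strand.
Hspa5 (chr2:34772000-34772068, plus strand): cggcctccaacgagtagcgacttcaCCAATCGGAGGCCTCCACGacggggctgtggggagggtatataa
Hsp90b1, far match (chr10:86705613-86705681, minus strand): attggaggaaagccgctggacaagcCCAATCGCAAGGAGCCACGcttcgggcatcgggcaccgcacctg
Hsp90b1, near match (chr10:86705508-86705576, minus strand): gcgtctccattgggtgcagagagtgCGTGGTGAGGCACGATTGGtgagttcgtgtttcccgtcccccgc
Calr (chr8:84847050-84847118, minus strand): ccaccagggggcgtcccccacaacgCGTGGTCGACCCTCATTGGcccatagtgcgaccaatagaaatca
Canx (chr11:50325775-50325843, minus strand): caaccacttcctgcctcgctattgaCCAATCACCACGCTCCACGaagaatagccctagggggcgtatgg
Creld2 (chr15:88819495-88819563, plus strand): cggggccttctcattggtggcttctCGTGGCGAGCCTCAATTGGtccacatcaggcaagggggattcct
Dnajc3 (chr14:118937802-118937870, plus strand): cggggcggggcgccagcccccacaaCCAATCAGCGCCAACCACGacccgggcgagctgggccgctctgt
Counted from the start site, the matches of Hsp90b1 began at -212 and -107 and that of Hspa5 at -65. With TMM scaling, Creld2 passed the test as higher and Calr, Hsp90b1 and Dnajc3 as lower. Hspa5 and Canx did not pass, at log2 fold changes of 0.27 and -0.41. With total library size, Calr, Hsp90b1 and Dnajc3 did not pass and Hspa5 passed as higher (log2 fold change 0.84). The call of Creld2 was lost in 5 of the fits that left out 1 library. Whether these 6 genes differed from each other was not tested.

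Sites of the other responses stood in few of the members. CARE stood in a promoter of 1.03% of all genes that have one and of 2 of the 49 members, 4.08%, Chac1, which rose, and Herpud1, which fell. The HSE stood in a promoter of 0.662% of all such genes and of 2 of the 49, 4.08%. In Hspd1, the mitochondrial HSP60, it stood as overlapping copies in the stretch shared with Hspe1, and in Hsph1 after the start site. Both of these genes fell with TMM scaling, but Hsph1 did not pass with total library size (log2 fold change -0.09) or without cisplatin 1 and 3 (-0.58). UPRE letters stood in a promoter of 0.714% of all such genes and of 0 of the 49. In these lines, capitals mark the CARE in Chac1 and Herpud1, and the overlapping HSE copies in Hspd1.
Chac1 (chr2:119351024-119351081, plus strand): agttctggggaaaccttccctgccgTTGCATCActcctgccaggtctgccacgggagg
Herpud1 (chr8:94386292-94386349, plus strand): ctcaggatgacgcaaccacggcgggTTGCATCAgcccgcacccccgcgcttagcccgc
Hspd1 (chr1:55088039-55088101, minus strand): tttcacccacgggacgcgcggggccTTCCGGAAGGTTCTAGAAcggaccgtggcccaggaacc
A match is a description of these letters only, and no binding was measured.

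The members changed often, and their main direction differed by compartment. Of the 61, 56 passed the filter on low counts. At an adjusted p under 0.05, more cytosolic members were higher than lower after cisplatin, and more ER members were lower than higher. At a log2 fold change of at least 1 in size as well, cytosolic members went both ways, 6 higher and 4 lower. Ddit3, Trib3 and Chac1 rose and most mitochondrial chaperones fell. With edgeR's quasi-likelihood test and adjustment over all 9141 genes tested, 18 members were higher and 22 lower at an adjusted p under 0.05, here called passing, and 16 did not pass. Among all genes tested, 26.4% were higher and 22.6% lower, 49.1% in all. At a log2 fold change of at least 1 in size as well, 9 members were higher and 12 lower, 37.5% of those tested, where the share over all genes was 34.9% (19.2% higher and 15.7% lower). The groups did not overlap for 35 members, 62.5%, against 46.3% of all genes. The 5 untested members were Dnajc5b and Hspb3, at 0 counts in every library, and Dnajb8, Dnajc5g and Pdia2, at 3 counts or fewer. Annotated exons of 14 members overlap another protein-coding gene, 13 of them on the other strand. In whole kidney RNA, fewer cells of a type and less RNA per cell cannot be told apart.

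**Figure D1:**
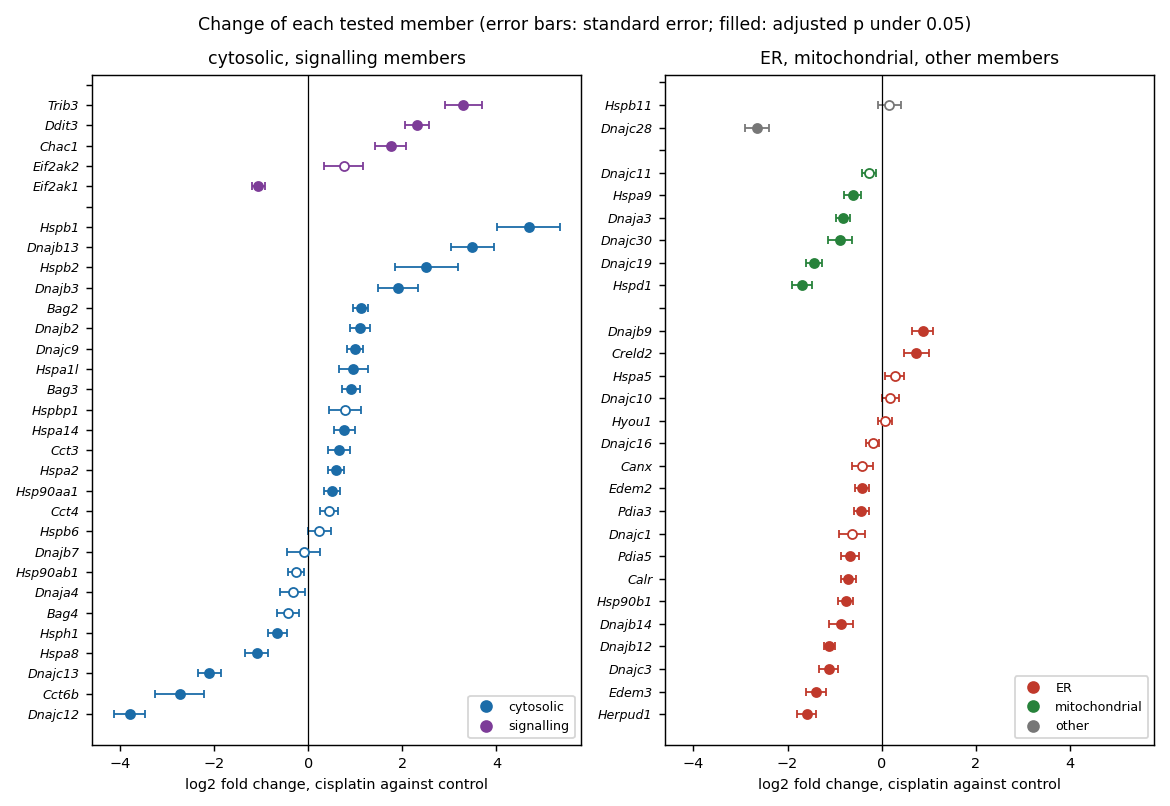
Log2 fold change, cisplatin against control, of the 56 members tested, by compartment. Points are edgeR estimates, bars are standard errors and filled points passed at an adjusted p under 0.05. Hspb1 lies highest at 4.69 and Dnajc12 lowest at -3.80, and the ER members lie between -1.59 and 0.87.

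Of the 25 cytosolic members tested, 13 were higher (52.0%), 5 lower (20.0%) and 7 did not pass. Their median log2 fold change was 0.58 against 0.08 over all genes. Of the 18 ER members, 2 were higher (11.1%), 10 lower (55.6%) and 6 did not pass. Their median was -0.53, which turned to 0.04 when scaled by total library size. Over all genes 26.4% were higher and 22.6% lower. Past the fold threshold, 6 cytosolic members were higher and 4 lower, 40.0% in all. In the ER, 0 were higher and 4 lower past it, 22.2%. The share of all genes past it was 34.9%, 19.2% higher and 15.7% lower. Relative to the all-gene median, the ER median was -0.61 with TMM and -0.60 with total size, and the cytosolic median 0.51 and 0.49. Without cisplatin 1 and 3, where 29.0% of all genes were higher and 28.1% lower, 21 of all members were higher and 24 lower, 16 cytosolic members were higher and 5 lower, and 2 ER members were higher and 11 lower. Past the fold threshold this raised the cytosolic members that were higher from 6 to 11, and the share of all genes from 19.2% to 21.4%. That fit partly mixes treatment with library set, as said above. Without control 3, 8 cytosolic members were higher. With each library left out in turn, 1954 to 2485 of all genes were higher. The lists were not tested against each other.

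**Figure D2:**
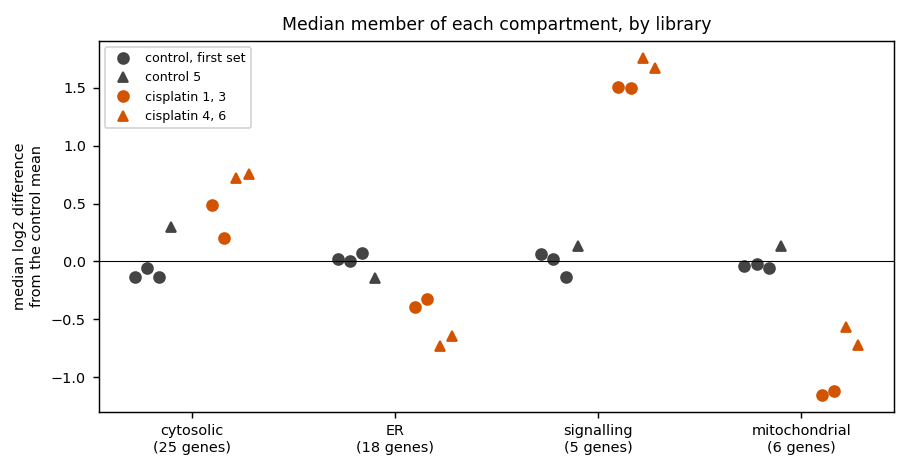
Median over the members of a compartment of the log2 difference from the control mean, for each library (log2 of CPM plus 0.5). Circles are the first library set and triangles the second, grey controls and orange cisplatin. The cisplatin medians of ER members, -0.73 to -0.32, lie below every control, those of cytosolic members, 0.21 to 0.76, overlap control 5 at 0.30, and the 4 medians of signalling members lie between 1.50 and 1.76.

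The small heat shock proteins held the largest rise. Hspb1 (ENSMUSG00000004951, chr5:135887919-135889563, GRCm38) encodes HSP27, which holds unfolding proteins and protects actin filaments. Its level was 5.05, 5.50, 5.23 and 21.2 CPM in control 1, 2, 3 and 5, and 108, 119.8, 297 and 429 CPM in cisplatin 1, 3, 4 and 6. All 4 libraries after cisplatin were above all controls, control 5 stood far above the other controls, and cisplatin 4 and 6 stood above cisplatin 1 and 3. The mean rose from 9.23 ± 7.95 to 239 ± 154 CPM (SD, n = 4 each), a 25.8-fold rise (log2 fold change 4.69, standard error 0.67, edgeR adjusted p = 0.000373). Without control 5 the log2 fold change was 5.48, without cisplatin 1 and 3 it was 5.31, and within the first library set it was 4.38.

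Hspb2, best known from heart and skeletal muscle, had 1.42, 1.36, 1.29 and 3.70 CPM in the controls and 2.96, 4.45, 18.0 and 19.2 CPM after cisplatin, and rose on average from 1.94 ± 1.17 to 11.2 ± 8.63 (SD, n = 4 each; log2 fold change 2.51, standard error 0.67, edgeR adjusted p = 0.0115). The rise was uneven: cisplatin 1 at 2.96 CPM lay below control 5 at 3.70, and cisplatin 4 and 6 stood far above the rest. The log2 fold change was 1.39 within the first library set and 3.27 without cisplatin 1 and 3. Hspb2 lies head to head with Cryab, the small heat shock protein alphaB-crystallin, and their annotated exons overlap on opposite strands. Cryab itself rose from 116 ± 67.5 to 842 ± 426 CPM (log2 fold change 2.87, standard error 0.48, edgeR adjusted p = 0.000942), and since the sources used here do not say whether strand was used in counting, reads of both genes cannot be told apart where they overlap. Hspb6, another muscle small heat shock protein, had 17.3, 16.1, 16.5 and 22.6 CPM in the controls and 15.1, 16.1, 28.6 and 25.8 CPM after cisplatin and did not pass (log2 fold change 0.24, standard error 0.25, edgeR adjusted p = 0.454). Its estimate turned to -0.14 within the first library set, and without cisplatin 1 and 3 it was 0.59 (edgeR adjusted p = 0.0254).

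**Figure D3:**
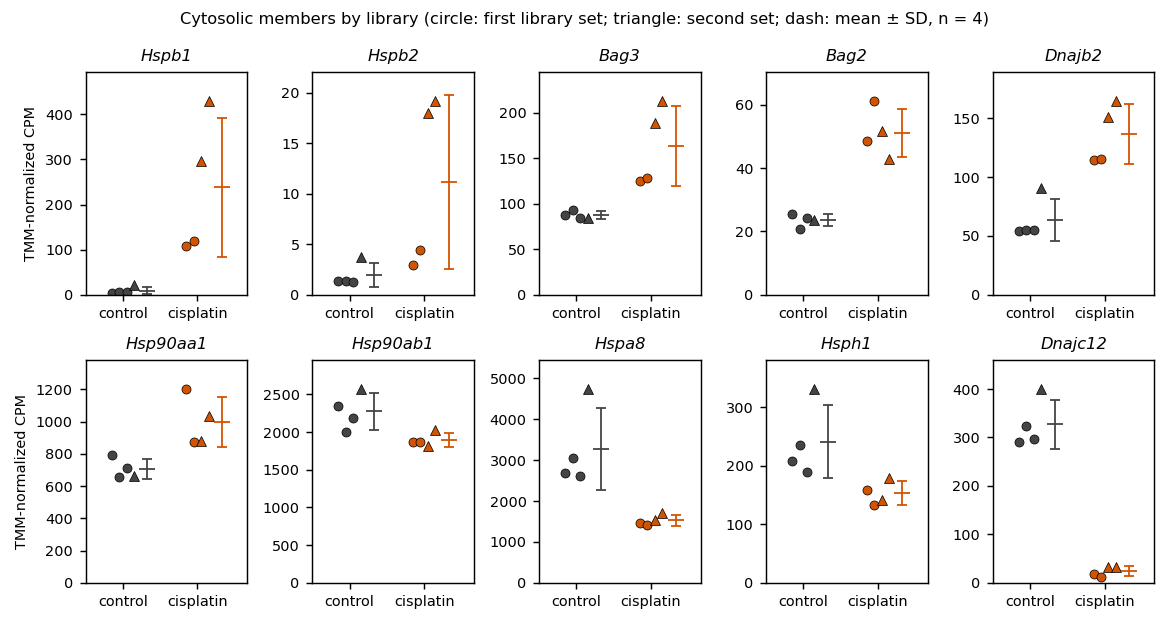
TMM-normalized CPM of 10 cytosolic members in each library, with the mean and SD of each group (n = 4). Circles are the first library set and triangles the second. Hspb1, Bag3, Bag2, Dnajb2 and Hsp90aa1 lie above every control after cisplatin, Hspa8, Hsph1 and Dnajc12 below, and Hspb2 and Hsp90ab1 overlap.

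The HSP70 and HSP110 members all passed, 3 higher and 2 lower. Hspa8 (ENSMUSG00000015656, chr9:40800984-40810087) encodes HSC70, the constitutive HSP70 that does most folding in unstressed cells. It had 2678, 3041, 2609 and 4742 CPM in the controls and 1452, 1417, 1529 and 1697 CPM after cisplatin. Each cisplatin-treated kidney was lower than each control, with control 5 far above the other controls, and the mean fell from 3268 ± 1001 to 1524 ± 125 CPM (log2 fold change -1.10, standard error 0.23, edgeR adjusted p = 0.00369). Without control 5 the log2 fold change was -0.88, and with total library size Hspa8 did not pass (log2 fold change -0.53, edgeR adjusted p = 0.0545). Hsph1, the HSP110 that exchanges nucleotide on HSP70 and is a classical heat shock gene, had 208, 235, 189.7 and 331 CPM in the controls and 159, 132, 141 and 179 CPM after cisplatin. It too fell without overlap (log2 fold change -0.66, standard error 0.20, edgeR adjusted p = 0.021), but did not pass without cisplatin 1 and 3 (log2 fold change -0.58, edgeR adjusted p = 0.0674) or with total library size (log2 fold change -0.09, edgeR adjusted p = 0.707).

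The HSP70 members that rose are less well known in the kidney. Hspa14, a ribosome-associated HSP70, had 31.6, 31.2, 28.3 and 35.1 CPM in the controls and 44.0, 36.3, 64.7 and 69.6 CPM after cisplatin (log2 fold change 0.77, standard error 0.22, edgeR adjusted p = 0.016). Hspa2, an HSP70 known for its role in spermatogenesis, had 14.8, 14.4, 12.9 and 12.3 CPM in the controls and 18.1, 17.7, 22.7 and 23.3 CPM after cisplatin (log2 fold change 0.58, standard error 0.17, edgeR adjusted p = 0.019). Hspa1l, an HSP70 mainly expressed in testis, had 1.24, 1.99, 1.29 and 1.42 CPM in the controls and 2.82, 2.14, 2.93 and 3.73 CPM after cisplatin (log2 fold change 0.96, standard error 0.30, edgeR adjusted p = 0.0248). All 3 were higher in 4 of 4 cisplatin-treated kidneys than in any control. Hspa1l is related in sequence to Hspa1a and Hspa1b, the inducible HSP70 genes, whose rows were not used here, so its reads are uncertain, and Hspa14 shares exons on the same strand with the predicted gene Gm45902. Leaving out control 3 ended the call of all 3, and the highest adjusted p over the libraries left out in turn was 0.0501 for Hspa14, 0.0644 for Hspa2 and 0.0786 for Hspa1l. The calls of Hspa1l without control 1 and of Hspa1l and Hspa2 without cisplatin 6, and of Hspa2 without cisplatin 4, were also lost. Within the first library set none of the 3 passed, at log2 fold changes of 0.35, 0.29 and 0.66 (edgeR adjusted p = 0.0591, 0.129 and 0.134), and a fit with replicate numbers 1 and 3 paired across the groups, the replicate block, lost Hspa2 and Hspa1l.

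Of the HSP90 pair, 1 passed. Hsp90aa1, the stress-inducible isoform, had 791, 654, 714 and 664 CPM in the controls and 1203, 875, 882 and 1032 CPM after cisplatin. All cisplatin-treated kidneys were higher than all controls, on average 998 ± 155 against 706 ± 62.6 CPM (log2 fold change 0.50, standard error 0.17, edgeR adjusted p = 0.0351). That call was lost without control 1, 2, 3 or 5 or cisplatin 1 or 6, with log2 fold changes of 0.39 to 0.55 and an adjusted p of up to 0.0998. Hsp90ab1, the constitutive isoform, had 2345, 1996, 2189 and 2573 CPM in the controls and 1872, 1866, 1811 and 2030.2 CPM after cisplatin. Its groups overlapped and it did not pass (log2 fold change -0.26, standard error 0.17, edgeR adjusted p = 0.223), though with DESeq2 on the same genes it passed as lower (log2 fold change -0.30, DESeq2 adjusted p = 0.0447), and its estimate turned to 0.30 with scaling by total size. Whether the change differed between these isoforms was not tested.

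Among the cytosolic J-domain co-chaperones, which hand clients to HSP70 and start its ATPase, 4 rose, 2 fell and 2 of the 8 tested did not pass. The 2 that fell had, with the chaperonin gene Cct6b, the largest falls among the cytosolic members. Dnajc12 (ENSMUSG00000036764, chr10:63382443-63410576), the co-chaperone of the aromatic amino acid hydroxylases, had 289.9, 325, 296 and 400.1 CPM in the controls and 17.6, 12.3, 32.8 and 32.0 CPM after cisplatin. No kidney overlapped between groups, and the mean fell from 328 ± 50.6 to 23.7 ± 10.3 CPM, 13.9-fold (log2 fold change -3.80, standard error 0.33, edgeR adjusted p = 2.37e-05). Dnajc13, a J-domain protein of endosomes, had 341, 289, 369 and 319 CPM in the controls and 87.9, 109, 53.7 and 55.7 CPM after cisplatin and fell in all 4 cisplatin-treated kidneys (log2 fold change -2.11, standard error 0.25, edgeR adjusted p = 0.000117).

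Of the J-domain members that rose, Dnajb2, a neuronally enriched co-chaperone that carries ubiquitin-binding motifs, had 54.3, 54.6, 54.9 and 90.5 CPM in the controls and 114, 115, 151 and 165 CPM after cisplatin (log2 fold change 1.10, standard error 0.22, edgeR adjusted p = 0.00241). Dnajc9, a histone co-chaperone, had 26.8, 29.4, 25.7 and 29.6 CPM in the controls and 50.9, 42.2, 60.8 and 67.4 CPM after cisplatin (log2 fold change 0.99, standard error 0.17, edgeR adjusted p = 0.00125). In both, all libraries after cisplatin were above all controls. Dnajb13, a protein of cilia and sperm axonemes, had 0.531, 0.638, 1.14 and 2.20 CPM in the controls and 8.60, 15.4, 10.6 and 16.6 CPM after cisplatin (log2 fold change 3.49, standard error 0.46, edgeR adjusted p = 0.000244), from 6, 8, 15 and 28 counts in the controls. Its exons overlap those of Ucp2 on the opposite strand, which rose from 195 to 713 CPM (log2 fold change 1.87), and reads of this pair cannot be told apart where they overlap if strand was not used in counting. Dnajb3, a testis co-chaperone, had 0.266, 0.638, 0.758 and 1.26 CPM in the controls and 3.09, 1.98, 2.93 and 3.09 CPM after cisplatin (log2 fold change 1.90, standard error 0.42, edgeR adjusted p = 0.00457), with 3, 8, 10 and 16 counts in the controls. Dnaja4 (log2 fold change -0.33, edgeR adjusted p = 0.334) and Dnajb7 (-0.10, edgeR adjusted p = 0.835) did not pass, and both turned positive with scaling by total size. Dnaja4 was lower within the first library set (log2 fold change -0.84, edgeR adjusted p = 0.00201) and with the replicate block (log2 fold change -0.76, edgeR adjusted p = 0.00399), and without cisplatin 1 and 3 its estimate was 0.08.

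Of the 4 nucleotide exchange factors, which free the client from HSP70, 2 rose and 2 did not pass. Bag3, a heat shock factor target that links HSP70 to small heat shock proteins in chaperone-assisted autophagy, had 87.3, 93.3, 84.1 and 84.9 CPM in the controls and 125, 128, 188 and 213 CPM after cisplatin, a rise from 87.4 ± 4.17 to 164 ± 44.0 CPM (log2 fold change 0.90, standard error 0.19, edgeR adjusted p = 0.00392). Bag2, which inhibits the HSP70-bound ubiquitin ligase CHIP, had 25.4, 20.9, 24.2 and 23.7 CPM in the controls and 48.7, 61.2, 51.8 and 43.0 CPM after cisplatin (log2 fold change 1.12, standard error 0.16, edgeR adjusted p = 0.000359). Both rose in 4 of 4 cisplatin-treated kidneys without overlap, and both passed in every alternative run. Hspbp1 had 26.2, 25.4, 28.9 and 65.2 CPM in the controls and 54.4, 40.1, 85.4 and 70.9 CPM after cisplatin and did not pass (log2 fold change 0.78, standard error 0.35, edgeR adjusted p = 0.088), with control 5 within the range of the cisplatin-treated kidneys. Bag4 had 37.9, 46.2, 43.5 and 39.6 CPM in the controls and 45.7, 30.5, 26.4 and 20.9 CPM after cisplatin and did not pass (log2 fold change -0.44, standard error 0.23, edgeR adjusted p = 0.145). Both passed without cisplatin 1 and 3, at log2 fold changes of 1.12 and -0.81 (edgeR adjusted p = 0.0323 and 0.00535). The estimate of Bag4 turned to 0.15 with total library size, and Hspbp1 also passed within the first library set (log2 fold change 0.76, edgeR adjusted p = 0.0034), with the replicate block (log2 fold change 0.76, edgeR adjusted p = 0.00272) and without control 5 (log2 fold change 1.21).

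The chaperonin subunits gave 1 gene of each kind. Cct3 had 161, 161, 162 and 241 CPM in the controls and 253, 191, 353 and 343 CPM after cisplatin and was higher (log2 fold change 0.66, standard error 0.23, edgeR adjusted p = 0.0403), with control 5 above cisplatin 3. Its call was lost without control 1, 2 or 3 or cisplatin 4 or 6, at log2 fold changes of 0.53 to 0.59 and an adjusted p of up to 0.106. Cct4 had 168, 165, 155 and 223 CPM in the controls and 247, 172, 252 and 296 CPM after cisplatin and did not pass (log2 fold change 0.44, standard error 0.20, edgeR adjusted p = 0.0874). Cct6b, the testis paralog of a chaperonin subunit, had 2.83, 4.95, 2.81 and 4.80 CPM in the controls and 0.273, 0.220, 1.17 and 0.714 CPM after cisplatin and was lower (log2 fold change -2.74, standard error 0.53, edgeR adjusted p = 0.00213), on counts of only 6, 4, 16 and 9 after cisplatin.

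In the ER, the main chaperones fell or did not pass the test with TMM scaling. Hspa5 (ENSMUSG00000026864, chr2:34771970-34777547) encodes BiP, the ER HSP70 whose release sets off the unfolded protein response and whose transcript is its most used marker. It had 558, 563, 565 and 807 CPM in the controls and 774, 558, 819 and 865 CPM after cisplatin. Control 5 lay within the range of the cisplatin-treated kidneys and cisplatin 3 close to the other controls, and Hspa5 did not pass, with means of 623 ± 123 and 754 ± 136 CPM (log2 fold change 0.27, standard error 0.20, edgeR adjusted p = 0.289). Its estimate without cisplatin 1 and 3 was 0.44 (edgeR adjusted p = 0.07). Hyou1, the ER HSP110 that exchanges nucleotide on BiP, had 176, 162, 201 and 219 CPM in the controls and 176, 214, 190.0 and 217 CPM after cisplatin and did not pass (log2 fold change 0.07, standard error 0.15, edgeR adjusted p = 0.725). With total library size, which moved the all-gene median by 0.57, both passed as higher, Hspa5 at a log2 fold change of 0.84 (edgeR adjusted p = 0.00354) and Hyou1 at 0.64 (edgeR adjusted p = 0.00328). A missed threshold does not show that these genes stayed level.

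Hsp90b1 (GRP94), the HSP90 of the ER, had 625, 622, 667 and 513 CPM in the controls and 419.6, 345, 309.7 and 356 CPM after cisplatin. Each cisplatin-treated kidney was below each control, and the mean fell from 607 ± 66.0 to 358 ± 45.9 CPM (log2 fold change -0.76, standard error 0.16, edgeR adjusted p = 0.00369). Calr (calreticulin), a lectin chaperone of glycoproteins and a main calcium-binding protein of the ER, had 1318, 1167, 1572 and 1269.6 CPM in the controls and 835, 829, 787 and 818 CPM after cisplatin. It fell without overlap from 1332 ± 172 to 817 ± 21.5 CPM (log2 fold change -0.70, standard error 0.16, edgeR adjusted p = 0.00545), and the 4 cisplatin-treated kidneys lay within a narrow range. Canx (calnexin), the membrane-bound partner of calreticulin, had 1035, 1078, 960.0 and 653 CPM in the controls and 905, 768, 558 and 579.8 CPM after cisplatin. Control 5 was lower than cisplatin 1 and 3 and Canx did not pass (log2 fold change -0.41, standard error 0.23, edgeR adjusted p = 0.167), while without those libraries it did (log2 fold change -0.71, edgeR adjusted p = 0.0322). With total library size, the estimates of Hsp90b1 and Calr stayed negative at -0.19 and -0.14 without passing, and that of Canx turned to 0.17.

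**Figure D4:**
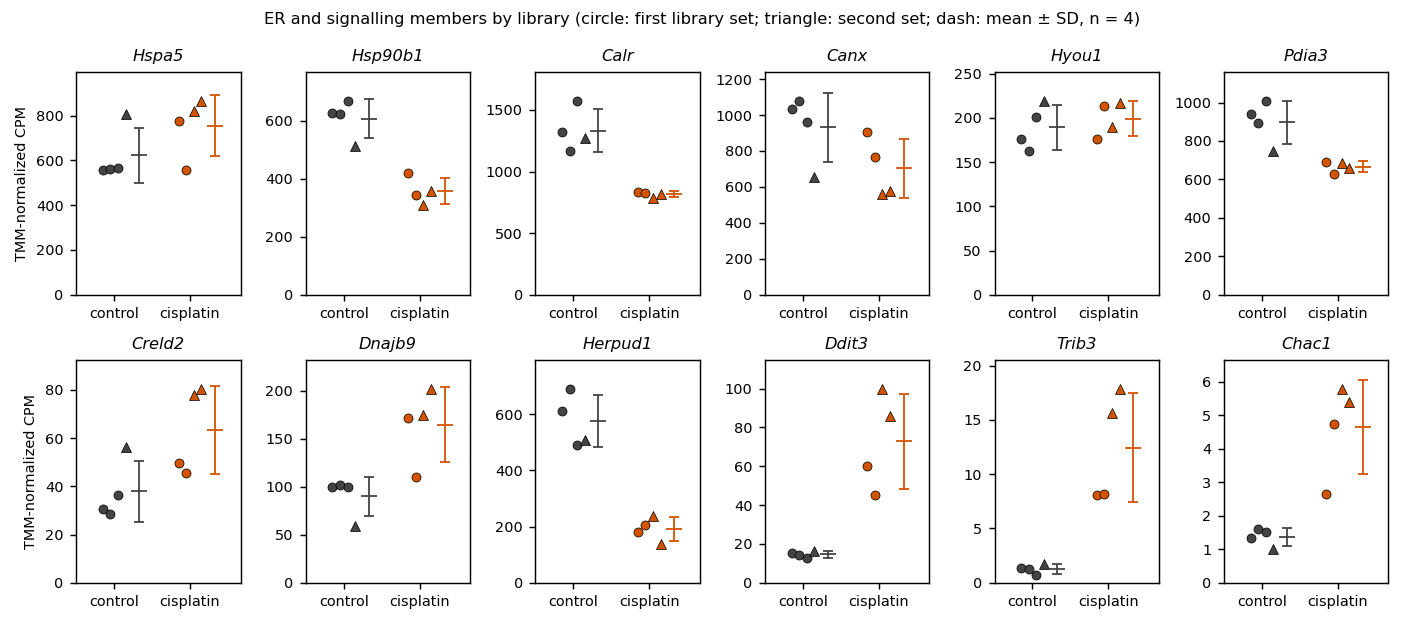
TMM-normalized CPM of 9 ER members and of the signalling members Ddit3, Trib3 and Chac1 in each library, with the mean and SD of each group (n = 4). Circles are the first library set and triangles the second. Hsp90b1, Calr, Pdia3 and Herpud1 lie below every control after cisplatin, Dnajb9, Ddit3, Trib3 and Chac1 above every control, and Hspa5, Canx, Hyou1 and Creld2 overlap.

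The ER J-domain co-chaperones held 1 of the 2 ER members that rose. Dnajb9 (ERdj4, chr12:44205559-44210326), a target of the IRE1 and XBP1 branch that returns the sensor IRE1 to BiP, had 100.2, 102, 99.3 and 59.5 CPM in the controls and 172, 110.4, 175 and 202 CPM after cisplatin. Control 5 was the lowest library, and all cisplatin-treated kidneys were higher than all controls (log2 fold change 0.87, standard error 0.23, edgeR adjusted p = 0.0118). Within the first library set it did not pass (log2 fold change 0.43, edgeR adjusted p = 0.0593). Dnajc3 (p58IPK), a co-chaperone that also inhibits PERK, had 295, 332, 314 and 279.7 CPM in the controls and 188, 148, 116 and 108 CPM after cisplatin, and Dnajb12, an ER membrane co-chaperone of degradation, had 156, 156, 156 and 154 CPM in the controls and 68.6, 76.4, 72.8 and 69.5 CPM after cisplatin. Both fell without overlap (log2 fold change -1.13, standard error 0.19, edgeR adjusted p = 0.00111, and log2 fold change -1.11, standard error 0.12, edgeR adjusted p = 6.97e-05). With total library size Dnajc3 did not pass (log2 fold change -0.55, edgeR adjusted p = 0.0589). The controls of Dnajb12 had the lowest SD relative to the mean of all members. Dnajb14, a partner of Dnajb12, had 73.6, 86.4, 82.7 and 50.6 CPM in the controls and 53.5, 49.0, 26.5 and 32.2 CPM after cisplatin and fell with overlap (log2 fold change -0.86, standard error 0.26, edgeR adjusted p = 0.0198), a call lost with total library size (log2 fold change -0.28) and without control 2, control 3 or cisplatin 6 (adjusted p of up to 0.0581). Dnajc1, Dnajc10 and Dnajc16 did not pass, at log2 fold changes of -0.63, 0.19 and -0.19. With total library size Dnajc10 and Dnajc16 passed as higher (log2 fold change 0.76 and 0.37), which turned the direction of Dnajc16.

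The disulfide isomerases and related genes, which form and reshuffle disulfide bonds, gave 1 rise and 2 falls. Creld2, an isomerase-like ER stress gene, had 30.6, 28.4, 36.6 and 56.3 CPM in the controls and 49.8, 45.7, 77.8 and 80.3 CPM after cisplatin, and was higher (log2 fold change 0.74, standard error 0.27, edgeR adjusted p = 0.0457) with control 5 above cisplatin 1 and 3. That call was lost without control 1, 2 or 3 or cisplatin 4 or 6 (log2 fold change 0.61 to 0.71, adjusted p of up to 0.119). Pdia3 (ERp57), the partner of calnexin and calreticulin, had 942, 894, 1008 and 746 CPM in the controls and 693, 627, 684 and 659.9 CPM after cisplatin and fell without overlap (log2 fold change -0.43, standard error 0.16, edgeR adjusted p = 0.0451), but its estimate turned to 0.13 with total library size, and the call was lost without any 1 of control 1, 2 or 3 or cisplatin 1, 3, 4 or 6 (adjusted p of up to 0.12). Pdia5 had 27.3, 23.9, 22.7 and 33.1 CPM in the controls and 16.9, 20.0, 13.4 and 17.0 CPM after cisplatin and fell without overlap (log2 fold change -0.67, standard error 0.19, edgeR adjusted p = 0.0166). The Pdia5 call was lost with total library size (log2 fold change -0.09, edgeR adjusted p = 0.713) and with the replicate block (log2 fold change -0.43, edgeR adjusted p = 0.0779).

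All 3 genes of ER-associated degradation were lower with TMM scaling, Edem2 turning positive (0.16) with total library size. Herpud1 (ENSMUSG00000031770, chr8:94386438-94395377), which encodes the HERP subunit of the HRD1 degradation complex and is an established ER stress gene, had 610.2, 690.3, 490.4 and 509 CPM in the controls and 179, 206, 239 and 137 CPM after cisplatin. It fell from 575 ± 93.1 to 191 ± 43.1 CPM, 3.02-fold and without overlap (log2 fold change -1.59, standard error 0.21, edgeR adjusted p = 0.000229), the largest fall among the ER members tested. Edem3, a mannosidase that marks glycoproteins for degradation, had 123, 147, 135 and 109 CPM in the controls and 53.0, 67.1, 37.6 and 38.4 CPM after cisplatin (log2 fold change -1.39, standard error 0.21, edgeR adjusted p = 0.000551), also without overlap. Edem2, which trims the mannose before Edem3, had 62.8, 55.2, 67.3 and 77.2 CPM in the controls and 46.6, 56.7, 45.8 and 47.7 CPM after cisplatin (log2 fold change -0.42, standard error 0.15, edgeR adjusted p = 0.044). Its groups overlapped, and the call was lost without control 1, 3 or 5 or cisplatin 1, 4 or 6 (adjusted p of up to 0.0958).

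The 5 signalling members had a median log2 fold change of 1.75, and the 3 outputs of CHOP and ATF4 among them all rose past the fold threshold. Without cisplatin 1 and 3, 3 signalling members were still higher and 1 lower. Ddit3 (ENSMUSG00000025408, chr10:127290774-127296288) encodes CHOP, the transcription factor that carries prolonged ER stress towards cell death. It had 15.2, 14.1, 12.6 and 16.6 CPM in the controls and 60.4, 45.1, 99.8 and 85.9 CPM after cisplatin, and rose from 14.6 ± 1.70 to 72.8 ± 24.6 CPM, 4.97-fold (log2 fold change 2.31, standard error 0.25, edgeR adjusted p = 8.48e-05). Trib3, a pseudokinase induced by CHOP and ATF4 that inhibits AKT, had 1.33, 1.28, 0.683 and 1.73 CPM in the controls and 8.10, 8.19, 15.6 and 17.8 CPM after cisplatin (log2 fold change 3.30, standard error 0.40, edgeR adjusted p = 0.000149). Chac1, which breaks down glutathione, had 1.33, 1.60, 1.52 and 1.02 CPM in the controls and 2.64, 4.73, 5.78 and 5.39 CPM after cisplatin (log2 fold change 1.75, standard error 0.33, edgeR adjusted p = 0.00196). In each, 4 of 4 cisplatin-treated kidneys were above all controls, and the second library set was higher than the first among them. Ddit3 shares exon sequence on the opposite strand with Mars, at 68.7 CPM in controls and 81.3 CPM after cisplatin, which did not pass. On the same strand, its exons overlap another annotated protein-coding entry that is also named Ddit3, so its reads are uncertain there.

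Of the eIF2alpha kinases, Eif2ak1 (HRI), which senses heme and mitochondrial stress, had 146, 149.8, 135 and 162 CPM in the controls and 71.9, 65.9, 79.4 and 66.8 CPM after cisplatin. It fell in all 4 cisplatin-treated kidneys (log2 fold change -1.06, standard error 0.13, edgeR adjusted p = 0.000168). Eif2ak2 (PKR), an interferon-induced sensor of double-stranded RNA, had 59.9, 36.6, 59.7 and 21.2 CPM in the controls and 117, 95.9, 45.9 and 39.3 CPM after cisplatin and did not pass (log2 fold change 0.75, standard error 0.42, edgeR adjusted p = 0.163). Its level followed the library set in both groups, with the second set lower, and without cisplatin 1 and 3 the estimate was -0.05. It passed as higher within the first library set (log2 fold change 0.98, edgeR adjusted p = 0.00459), with the replicate block (log2 fold change 0.83, edgeR adjusted p = 0.000482), with a term for the library set and with total library size.

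Of the 6 mitochondrial members, 5 fell and 1, Dnajc11 (log2 fold change -0.27), did not pass. Their median was -0.85, or -0.93 relative to the all-gene median. With total library size the median was -0.30, or -0.94 relative to the all-gene median, with Dnajc11 turning to 0.31 and 2 of the 5 still passing. All 6 passed as lower without cisplatin 1 and 3. Hspd1 (ENSMUSG00000025980, chr1:55077835-55088243) encodes HSP60, the chaperonin of the matrix and a marker of the mitochondrial unfolded protein response. It had 1273, 1258, 1137 and 1293 CPM in the controls and 359, 273, 403 and 505 CPM after cisplatin. No kidney overlapped, and the mean fell from 1240.2 ± 70.0 to 385 ± 96.5 CPM (log2 fold change -1.69, standard error 0.21, edgeR adjusted p = 0.000156). Dnajc19, of the import motor, had 80.5, 80.3, 86.5 and 88.9 CPM in the controls and 24.1, 28.2, 39.2 and 32.8 CPM after cisplatin (log2 fold change -1.44, standard error 0.17, edgeR adjusted p = 0.00013). Dnajc30 had 32.5, 36.8, 33.7 and 40.8 CPM in the controls and 12.6, 14.8, 26.5 and 24.3 CPM after cisplatin (log2 fold change -0.88, standard error 0.25, edgeR adjusted p = 0.0154). In these 3 the cisplatin-treated kidneys of the second set were higher than those of the first. Hspa9 (mortalin), the matrix HSP70, and its co-chaperone Dnaja3 (Tid1) fell less, by log2 fold changes of -0.62 and -0.82 (edgeR adjusted p = 0.0145 and 0.00128).

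The members placed in no compartment were Dnajc28 and Hspb11. Dnajc28 had 37.4, 32.2, 39.0 and 28.1 CPM in the controls and 7.37, 6.16, 3.81 and 4.20 CPM after cisplatin and fell without overlap (log2 fold change -2.66, standard error 0.25, edgeR adjusted p = 3.46e-05). Hspb11 (IFT25), a ciliary transport protein with a small heat shock name, had 5.67, 6.14, 5.61 and 4.56 CPM in the controls and 5.00, 5.66, 7.39 and 6.58 CPM after cisplatin and did not pass (log2 fold change 0.16, standard error 0.24, edgeR adjusted p = 0.605).

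Per kilobase of the gene length given in the table, the order of levels changed at the top. In controls, the mean levels of Hspa8 and Hsp90ab1 were alike at 759.7 and 759 CPM per kb, followed by Hspd1 at 469, Calr at 462 and Hspa9 at 388. After cisplatin, Hsp90ab1 led at 632 CPM per kb, then Hspa8 at 354, Calr at 284, Hsp90aa1 at 254 and Hspa9 at 253. The mean of Hspb1 was 231 CPM per kb after cisplatin, from 8.96 in controls, and that of Hspd1 was 146. Neighbours closer than their SD, such as Hspa8 and Hsp90ab1 in controls or Hspb1 and Hspa9 after cisplatin, cannot be ranked.

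The library sets gave the same direction for each of the 40 members that passed, computed as cisplatin 1 and 3 against control 1, 2 and 3, and as cisplatin 4 and 6 against control 5. The second comparison has 1 control and was not tested. The 40 members were chosen by a fit of the same libraries, which favours equal signs, so the agreement is not independent support. Among the 16 members that did not pass, Hyou1, Hspb6 and Hspb11 did not keep the direction of the fit of all libraries in both sets. Levels within the cisplatin group differed by set: cisplatin 4 and 6 were both higher than cisplatin 1 and 3 for 27 of the 56 members, both lower for 12 and overlapped for 17. Over all genes tested the shares were 36.7% higher, 36.2% lower and 27.2% overlapping. Since cisplatin 1 and 3 are also the libraries without Y-linked counts, the set and that difference cannot be told apart within the cisplatin group. The set was read from the principal components of these same libraries, so a fit with it as a covariate is not independent support either. In that fit, each of the 40 members still passed and 5 more did (Cct4, Dnaja4, Dnajc1, Eif2ak2 and Hspbp1). With the first set alone 35 of the 40 passed, and so did the last 4 of those 5. Without cisplatin 1 and 3, 38 of the 40 passed, and 7 more did (Bag4, Canx, Cct4, Dnajc1, Dnajc11, Hspb6 and Hspbp1). In that fit the cisplatin libraries are all of the second set, but of the controls only control 5 is. Treatment and set are therefore partly mixed in it.

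**Figure D5:**
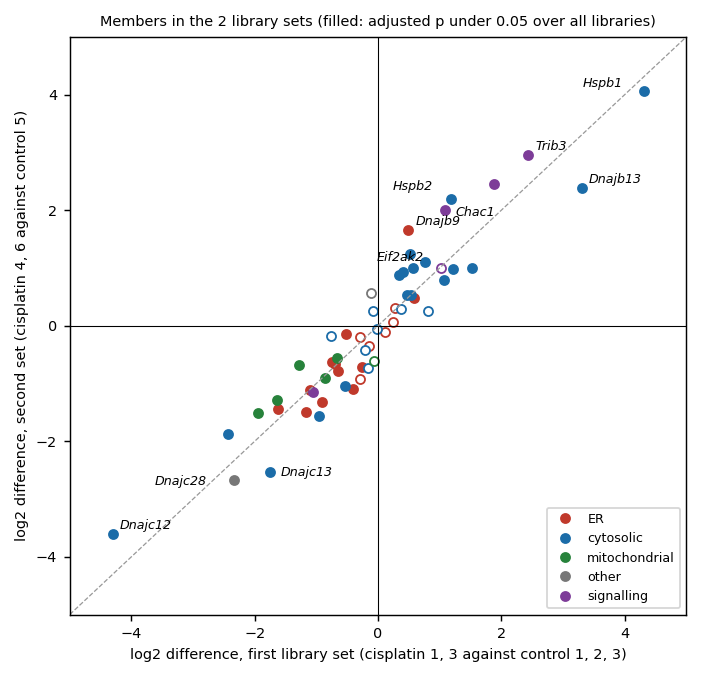
Log2 difference of mean levels (log2 of CPM plus 0.5) between cisplatin and control for each member tested, in the first library set on the x axis and in the second set, with 1 control, on the y axis. The dashed line marks equal differences, and filled points passed over all libraries. Hspb1 lies at 4.31 and 4.07, Dnajb9 at 0.49 and 1.66, and all filled points have the same sign on both axes. Filled points were chosen by a fit of the same libraries, which favours equal signs.

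Other genes of the same pathways, listed by function, were read from the same fit, in which 26.4% of all genes were higher and 22.6% lower. Of 25 heat shock factors and cytosolic partners, 10 were tested, 4 were higher and 1 lower, with a median of 0.47. The 5 that passed were 50.0% of those tested, close to the 49.1% of all genes. Past the fold threshold were Cryab (given above), Fkbp5, a co-chaperone of HSP90 that glucocorticoids induce (log2 fold change 1.80, edgeR adjusted p = 0.000164), and the heat shock factor gene Hsf4 (1.58, edgeR adjusted p = 0.00778). Hsf1 was not tested.

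Of 43 ER folding, glycoprotein and degradation partners, 20 were tested, 3 were higher and 8 lower, with a median of -0.30. Serpinh1 (HSP47), the collagen chaperone, rose (log2 fold change 1.04, edgeR adjusted p = 0.00334), as did the collagen genes Col1a1, Col1a2 and Col3a1, read as fibroblast markers below. Ero1lb, the oxidase that recharges isomerases (-1.52, edgeR adjusted p = 5.09e-05), Sil1, the exchange factor of BiP (-1.51, edgeR adjusted p = 0.000298), and Derl3, of ER-associated degradation (-1.28, edgeR adjusted p = 0.0306), had the largest falls of this list. P4hb, the main disulfide isomerase, did not pass (-0.52, edgeR adjusted p = 0.0675).

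Of 31 genes of the unfolded protein and integrated stress responses, 13 were tested, 8 were higher and 2 lower, with a median of 1.63. The cystine transporter Slc7a11 rose from 0.339 ± 0.205 to 4.17 ± 2.41 CPM (log2 fold change 3.57, standard error 0.55, edgeR adjusted p = 0.000607), the ER-bound transcription factor Creb3l3 by 2.94 (edgeR adjusted p = 0.00157) and Cebpb by 2.45 (edgeR adjusted p = 0.000186) on the log2 scale. The ATF4 targets that fell were Shmt2, of mitochondrial serine metabolism, from 590.0 ± 106 to 74.6 ± 26.8 CPM (log2 fold change -2.98, standard error 0.29, edgeR adjusted p = 4.25e-05), and the cysteine-making enzyme gene Cth (log2 fold change -2.09, standard error 0.40, edgeR adjusted p = 0.00214). Atf4, Atf6 and Atf3 were not tested. Over the 3 lists, 15 genes were higher and 11 lower, which became 23 and 5 with total library size, where 47.8% of all genes were higher and 11.9% lower. They were 17 and 11 without cisplatin 1 and 3.

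The tested markers of kidney cell types moved with the same contrast, and their part in the members' changes was not tested. All 12 proximal tubule markers, Lrp2, Cubn and Slc34a1 among them, fell, and their summed level was 59454 to 75132 CPM in controls and 1353 to 14083 CPM after cisplatin. Of 7 leukocyte markers tested of 12, 4 rose and 1, Ptprc, fell, and the sums were 115 to 149 and 143 to 217 CPM. Of 8 fibroblast markers 4 were tested and 3 rose, from sums of 71.6 to 257 CPM to sums of 343 to 1578 CPM. Of 5 plasma cell markers tested of 7, Derl3 (also in the ER list above) and Prdm1 fell, with sums of 19.4 to 52.0 and 8.23 to 32.9 CPM, and 3 did not pass. Of 4 endothelial markers tested of 8, Kdr fell and 3 did not pass, with sums of 256 to 476 and 148 to 334 CPM. Without cisplatin 1 and 3, 12 proximal tubule markers were lower, 4 leukocyte markers higher and 2 lower, 3 fibroblast markers higher, 1 plasma cell marker higher and 1 lower, and 3 endothelial markers lower. No marker tested was at 0 in all libraries of a group, and the other markers lie in rows not used here.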

How the data were processed

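Bulk RNA-seq counts of 4 control and 4 cisplatin kidneys were analysed. The authors trimmed reads with fastp, aligned them with HISAT2 to GRCm38 and deposited raw counts per gene, without normalization. The counting tool, annotation release and strand setting are not given in the sources used here, and the labels and the study's methods name different library kits. The table names 8 libraries. Of its 53715 rows, 35880 held 8 counts and were used, and 17835 (33.2%) held 10, with 2 unnamed extra columns, and were not. Coordinates are those of GRCm38 (GENCODE M21).

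Counts were tested in R 4.3.3 with edgeR 4.0.16 (default filter, TMM, quasi-likelihood test, Benjamini-Hochberg adjustment over 9141 genes). Thresholds were an adjusted p of 0.05 and, where stated, an absolute log2 fold change of 1. DESeq2 1.42.0, other scalings and filters, the replicate block and each library left out in turn were alternatives. Fits with the library set as covariate, of the first set alone and without cisplatin 1 and 3 were added after the data were seen. At these totals 3 counts correspond to 0.180 to 0.274 CPM before TMM, which covers counting error only. P-values set the difference between the groups against the spread between libraries of a group. In the main fit that spread also spans both library sets. The steps were tested on simulated counts with as many rises as falls and no library sets. That does not test the choice of scaling or the effect of the set.

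The members, their roles, the partner and marker lists and the tests were chosen with earlier results of these data known. Values in every library are given for a fixed list of known stress genes and for up to 3 members per role and direction with the largest change among those that passed at a mean of at least 1 CPM. Members that did not pass were added to complete their roles. Partner genes are named by the largest changes past both thresholds, up to 3 per list and direction.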

Additional observations from a re-analysis of the deposited data

Results flagged for a closer look

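Within a group of 4 libraries, the library farthest from the rest was set apart when its gap to the nearest other library was above Dixon's 95% critical share of the group's range. Over the 41 members named by rule, 82 groups were tested and 7 libraries stood apart. Chance flags about 1 in 20 groups. Of the 7, 6 were control 5, the only control of the second library set.

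Control 5 was the highest control for 5 of these members. It had 21.2 CPM of Hspb1, against 5.05 to 5.50 CPM in the other controls, and 3.70 CPM of Hspb2, against 1.29 to 1.42 CPM. It had 807 CPM of Hspa5, the BiP gene, where the others had 558 to 565 CPM. For Dnajb2 the values were 90.5 CPM in control 5 and 54.3 to 54.9 CPM in the others, and for Cct3 they were 241 CPM and 161 to 162 CPM. Control 5 was the lowest control for Dnajb9, at 59.5 CPM against 99.3 to 102 CPM.

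Among cisplatin-treated kidneys, cisplatin 3 stood apart for Dnajb3, at 1.98 CPM against 2.93 to 3.09 CPM.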

How the results depend on the processing

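Of the 40 members that passed, 21 passed in the same direction in each of the 19 alternatives that tested them, among them Hspb1, Hspb2, Bag2, Bag3, Ddit3, Trib3, Chac1, Herpud1, Edem3, Dnajb12, Dnajc12 and Hspd1. DESeq2 on the same genes kept all 40 and gained Dnajc1 and Hsp90ab1. Scaling by total library size moved most: over all genes 4365 were higher and 1084 lower (3174 and 803 with the fold threshold), 10 members were lower, and with the fold threshold 21 were higher and 6 lower. It gave 3 cytosolic members lower and 15 higher past the fold threshold, 6 ER members higher and 3 lower (2 and 1 past the fold threshold), and 23 partner genes higher and 5 lower. Its estimates changed sign for Dnajc16 (0.37), Canx (0.17), Edem2 (0.16), Pdia3 (0.13), Hsp90ab1 (0.30), Dnajb7 (0.47), Dnaja4 (0.22), Bag4 (0.15) and Dnajc11 (0.31). Requiring at least 10 counts in every library, which tested 51 members against 56, gave 1101 genes higher past the fold threshold and 4 marker genes higher. Without cisplatin 1 and 3, 16 members, 11 of them cytosolic and 2 in the ER, were higher past the fold threshold, and Dnajc10 (-0.0080), Dnaja4 (0.082) and Eif2ak2 (-0.053) changed sign. The number of ER members that were higher was 1 with DESeq2's size factors and 1 in the first library set alone. In that set Hspb6 (-0.14) and Hspb11 (-0.18) changed sign, as did Hyou1 without control 2 (range over libraries left out, -0.0039 to 0.14) and Dnajb7 without cisplatin 4 (-0.23 to 0.098). The cause was not tested.

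With each library left out in turn, 12 to 20 members were higher and 19 to 22 lower, cytosolic members that were higher ranged from 8 to 15, ER members that were higher from 1 to 2 and past the fold threshold from 0 to 1, and ER members that were lower from 7 to 10. Over all genes in the same fits, 1954 to 2485 were higher and 1787 to 2155 lower. Replicate numbers 1 and 3 occur in both groups, but only name libraries: deviations of same-numbered libraries correlated at 0.249 and 0.279, and those of other pairs of the first set at 0.148 to 0.355. The replicate block, which rests on those 4 libraries, gave 17 members higher and 21 lower. It lost Edem2, Hsp90aa1, Hspa1l, Hspa2 and Pdia5, gained Dnaja4, Eif2ak2 and Hspbp1, and turned Hspb6 (-0.11) and Hspb11 (-0.082). Genes in rows not used, such as Hspa1a, Dnajb1, Xbp1 and Pdia4, limit every count given here.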
